A study of Mus musculus with 16 samples.

Results

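The Tribbles genes Trib1, Trib2 and Trib3 were followed by RNA sequencing in mouse bone marrow cells sorted as LSK. This gate takes cells that lack lineage markers and carry Sca-1 and c-Kit, a fraction in which the stem cells and early progenitors of blood are found. The 3 genes were found by their symbols among 53342 genes. All 3 were among the 16482 genes with enough counts to test. They were chosen by a measured value, since Trib2 was much lower after 5-fluorouracil (5-FU), which depletes cycling cells of the marrow, than after PBS in wild-type mice. The contrast of 5-FU with PBS in wild type is therefore given below as a description, with no test for these genes.

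The mice, on a C57BL/6J background and 8 to 14 weeks old, were wild type or Gata2 +9.5(Ets)-/-, called the mutant here. The mutant carries, on both alleles and in all tissues, a single-base change (C>T) that disrupts the Ets site of the intronic +9.5 enhancer of Gata2, a gene for a hematopoietic transcription factor. Mice received PBS or 250 mg/kg 5-FU, and LSK cells were sorted 10 days later. Each genotype had 5 PBS libraries and 3 libraries after 5-FU. The labels do not say whether replicates were separate mice, so p-values measure the spread between these samples.

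Tribbles proteins are pseudokinases. They have the fold of a protein kinase with little or no catalytic activity, and they act as adaptors. A motif in their C-terminal tail binds the ubiquitin ligase COP1, and through it Trib1 and Trib2 direct the myeloid transcription factor C/EBPα to degradation. Forced expression of either gene blocks granulocyte differentiation and causes acute myeloid leukemia in mice. Trib3 is induced by the transcription factors ATF4 and CHOP in the integrated stress response, and its protein binds the kinase AKT.

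Trib1 (ENSMUSG00000032501.9) lies on chromosome 15 from 59648350 to 59657099 on the plus strand (GRCm38, GENCODE M21). Trib2 (ENSMUSG00000020601.8) lies on chromosome 12 from 15791727 to 15816922 on the minus strand and hosts the microRNA gene Mir6387. Trib3 (ENSMUSG00000032715.9) lies on chromosome 2 from 152337422 to 152344032 on the minus strand. No other annotated gene overlaps Trib1 or Trib3. Trib2 is a known target of the homeobox factor Meis1, so the RefSeq window of 250 bases before its start site was searched on both strands for the MEIS core motif TGACAG. It held 1 match, at 161 bases before the RefSeq start site (chr12:15816941-15816946). The GENCODE gene given above begins at 15816922 on the minus strand, nearer to the match, so the sources place the start site differently. The 30 bases around it (chr12:15816929-15816958, GRCm38.p6, minus strand, 5′ to 3′), with the match in capitals, read as follows.
Trib2: ctccgggctcaaTGACAGgggccggggcgt
Of 32851 such mouse windows, 15.9% hold this motif, so the match is common. The GATA motif AGATAA (9.99% of windows) and the composite C/EBP-ATF motif TGATGCAA (0.791% of windows) had no match in the windows of Trib2 and Trib3.

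Libraries held 19370153 to 28883365 estimated fragments. The transcripts that name the sorting gate were present in every library, Kit at 95.6 to 572 CPM (counts scaled to a common library total with TMM factors) and Ly6a, which encodes Sca-1, at 113.9 to 3787 CPM. Immunoglobulin genes took an uneven share of the counts. That share ran from 6.37 to 44.2% in wild type with PBS, from 3.67 to 50.2% in the mutant with PBS, from 0.0392 to 0.332% in wild type with 5-FU and from 5.69 to 26.6% in the mutant with 5-FU. The summed level of 9 plasma cell markers moved with it, with 3170 to 65100, 1580 to 74500, 138 to 377 and 2310 to 19500 CPM in the same order, and none of the 9 was at 0 in any group. Monocyte and macrophage markers (9 genes) summed to 484 to 7830, 398 to 10700, 40 to 160 and 516 to 942 CPM. The labels carry sample codes that are written with a leading zero for PBS replicates 1 to 3 of both genotypes and for the mutant 5-FU libraries, and without one for the rest. They do not say what this or the digits that codes share mean, so values within 1 way of writing, or within codes that begin alike, are given beside the results. Of 8 B cell markers, Pax5 and Fcmr were at 0 in all wild-type 5-FU libraries, and of 10 T and NK cell markers Cd3e and Cd8a were at 0 in every 5-FU library.

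Compared per length, the 3 genes had similar, low mean levels at steady state. In TPM, which scales to transcript length as well as to the library, wild-type PBS libraries had 6.01 ± 2.42 (SD, n = 5) for Trib1, 4.07 ± 3.77 for Trib2 and 5.50 ± 2.94 for Trib3. These SDs are between libraries, each of which measured all 3 genes, so they do not compare the genes within a library. The mutant PBS libraries had 4.88 ± 1.497, 3.29 ± 3.19 and 6.36 ± 3.63 TPM (SD, n = 5). After 5-FU, Trib2 stood below both other genes in every library. With PBS it already did so in wild-type replicates 1 to 3 and mutant replicates 1 to 4. It did not in wild-type PBS replicates 4 and 5 or mutant PBS replicate 5. Wild-type 5-FU libraries had 2.29 ± 0.352, 0.62 ± 0.157 and 7.47 ± 1.52 TPM (SD, n = 3) for Trib1, Trib2 and Trib3, and mutant 5-FU libraries had 4.99 ± 1.24, 0.953 ± 0.123 and 5.38 ± 2.65 TPM.

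Trib2, the member that represses C/EBPα through COP1 and that marked the choice of these genes, separated the 5-FU groups from the PBS groups. In CPM, wild-type PBS replicates 1 to 5 had 14.99, 10.5, 9.07, 20.0 and 22.6. Mutant PBS replicates 1 to 5 had 5.93, 7.54, 11.1, 14.1 and 18.0 CPM. Wild-type 5-FU replicates 1 to 3 had 0.759, 1.17 and 0.912 CPM, and mutant 5-FU replicates 1 to 3 had 4.17, 3.71 and 1.91 CPM. Every 5-FU library of either genotype lay below every PBS library, and the 3 mutant 5-FU libraries all exceeded the 3 of wild type, as they did for 21.4% of all genes. Within a genotype, all 5-FU libraries lay below the PBS libraries for 15.9% of all genes in wild type and 4.92% in the mutant. The share for both genotypes together was not computed. The wild-type part of this separation is the contrast that chose Trib2. The levels in wild type with 5-FU rest on 24 to 44 counts per library, well above the 3 counts taken as a floor (0.0798 to 0.272 CPM across libraries). In bulk RNA, fewer cells that express a gene and less RNA per cell cannot be told apart.

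**Figure D1:**
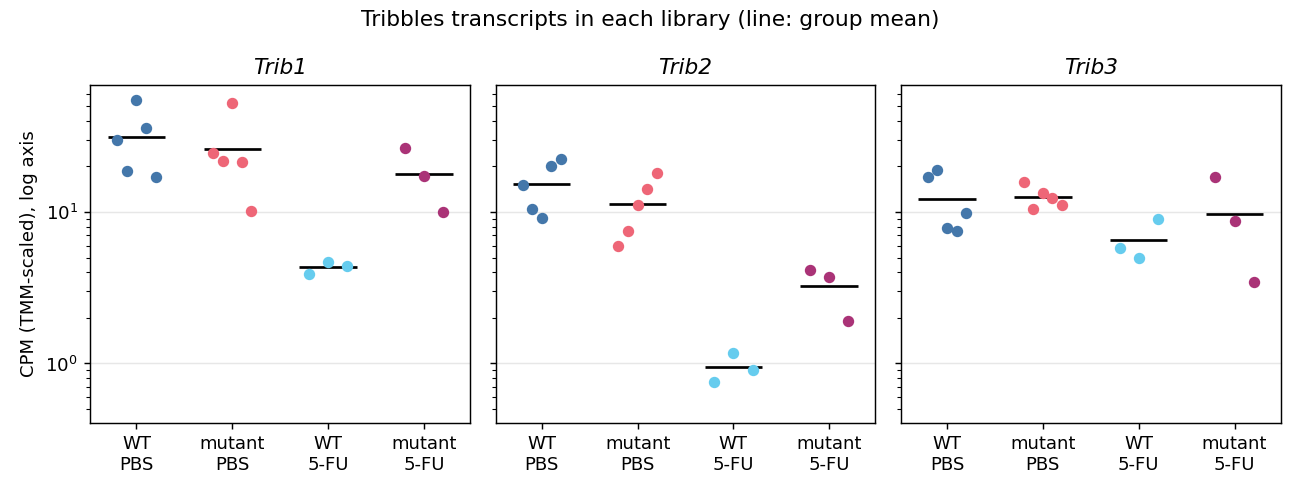
CPM (log axis) of Trib1, Trib2 and Trib3 in each of the 16 libraries by group, points being libraries and lines group means. For Trib2 the 3 wild-type 5-FU libraries sit between 0.759 and 1.17 and the 3 mutant 5-FU libraries between 1.91 and 4.17, all below the PBS libraries.

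The rule that chose Trib2 did not use the mutant libraries, which its response in the mutant compares. The fit still estimates the spread from all 16 libraries, and earlier results of these data were known when members and tests were chosen. In the mutant Trib2 fell after 5-FU, from a mean of 11.3 ± 4.89 CPM (SD, n = 5) to 3.27 ± 1.19 CPM (n = 3), a 3.48-fold reduction. The log2 fold change was −1.80 ± 0.42 (SE), with an adjusted p of 0.0334 by edgeR's quasi-likelihood test with Benjamini-Hochberg adjustment over all 16482 genes. Lower calls made up 1.36% of the genes tested in this comparison, and 4.92% of genes had 5-FU libraries that all lay below the PBS libraries. The call rests on few libraries. The adjusted p rose to 0.0681 without mutant PBS replicate 4, to 0.0697 without mutant PBS replicate 5, and to 0.0591, 0.116 and 0.201 without mutant 5-FU replicates 1, 2 and 3. It was 0.106 in a fit of the 2 mutant groups alone, which leaves out the libraries that chose the gene, with a log2 fold change of −1.81. Mutant PBS replicates 1 and 2, the lowest in Trib2 of their group, have codes that begin with the same digits as those of the 3 mutant 5-FU libraries. Compared with these 2 alone the reduction was 2.06-fold, from 6.74 CPM (n = 2), with a fitted log2 fold change of −1.05 ± 0.34 that did not pass (adjusted p = 0.0976, edgeR). On the log2(TPM + 1) scale, where the median gene moved by 0.325, the value was −0.83 (adjusted p = 0.792), and without immunoglobulin genes in the TPM total −1.09 (adjusted p = 0.374). Trib2 had 0.85 to 1.09 TPM in the mutant after 5-FU, so the added 1 by itself shrinks its fold changes on this scale. The immunoglobulin share overlapped between these groups, and with that share as a covariate the value was −1.77 ± 0.38 (adjusted p = 0.0151). Among libraries whose sample codes are written with a leading zero, 3 against 3, it was −1.32 ± 0.34 (adjusted p = 0.0448). Several marker lists parted the same groups without overlap. Neutrophil markers (7 genes, none at 0 in all libraries of a group) summed to 3450 to 22900 CPM with PBS and to 1.93 to 79.1 CPM after 5-FU in the mutant. Markers of lymphoid-primed progenitors (8 genes, Rag1 at 0 after 5-FU) summed to 589 to 1650 and then 120 to 135 CPM. The megakaryocyte and platelet list (7 genes) went from 118 to 172 CPM up to 285 to 407 CPM, and the list of gate and stem cell markers (8 genes) from 1750 to 4300 down to 1280 to 1500 CPM. None of these 2 lists' genes was at 0 throughout a group. Their part in the result was not tested.

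In wild type, the contrast that chose the gene, Trib2 averaged 15.4 ± 5.86 CPM (SD, n = 5) with PBS and 0.947 ± 0.208 CPM (n = 3) after 5-FU. The fitted log2 fold change was −4.02 ± 0.48 (SE). Of all genes tested, 14.9% were called in this comparison and 15.9% had 5-FU libraries that all lay below the PBS libraries. Within codes written without a leading zero (2 PBS and 3 5-FU libraries) the value was −4.48 ± 0.40. Between genotypes, Trib2 differed by −0.45 ± 0.34 under PBS, where the groups overlapped, and by 1.78 ± 0.46 after 5-FU, where they did not. The difference between the responses of the mutant and of wild type was 2.22 ± 0.57. On the log2(TPM + 1) scale the difference after 5-FU was 0.27, the difference of the responses 0.52 and the wild-type response −1.35. The added 1 by itself shrinks these values, since Trib2 after 5-FU had 0.44 to 0.73 TPM in wild type and 0.85 to 1.09 TPM in the mutant. The median gene moved by −0.593, −0.684 and 1.01 on that scale, in the same order. With the immunoglobulin share as a covariate the same 3 values of Trib2 were 3.25, 3.79 and −5.56. The wild-type 5-FU libraries had shares below those of every other group, so these values are extrapolations. With code writing as a covariate the difference after 5-FU and that of the responses were 2.70 and 3.17. After 5-FU code writing and genotype coincide, so these values carry an effect of code writing estimated under PBS over to 5-FU. Under PBS the difference was −0.50 within codes written with a leading zero and −0.41 within the others. These differences share libraries with the choice of Trib2 and were not tested.

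Within the PBS groups, Trib2 was highest where immunoglobulin counts were fewest. The top level of each genotype, 22.6 CPM (wild type) and 18.0 CPM (mutant), stood in the library with its lowest share, 6.37 and 3.67%. The lowest wild-type level, 9.07 CPM, stood in the library with the highest share, 44.2%, whereas the lowest mutant level, 5.93 CPM, stood at 28.9%. Among the mutant 5-FU libraries the order was the opposite, with 4.17 CPM at 26.6% and 1.91 CPM at 5.69%. The part of other cells in these levels was not tested. The deposited effective length of Trib2, an average over its annotated transcripts weighted by their estimated shares, was 4098 bases in 10 of the 16 libraries. It was 2340 bases in wild-type 5-FU replicate 1, where the estimate rests on 25 counts, and this raised the TPM of that library relative to its CPM.

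Trib1, the relative of Trib2 that also directs C/EBPα to COP1 and whose loss in mice depletes eosinophils and tissue macrophages, was lowest in wild type after 5-FU. Wild-type PBS replicates 1 to 5 had 30.1, 18.6, 54.7, 36.0 and 16.9 CPM. Mutant PBS replicates 1 to 5 had 24.5, 21.8, 52.3, 21.4 and 10.2 CPM. Wild-type 5-FU replicates 1 to 3 had 3.92, 4.66 and 4.37 CPM, and mutant 5-FU replicates 1 to 3 had 26.4, 17.3 and 9.96 CPM. The wild-type 5-FU libraries lay below all 13 others, while the ranges of the other 3 groups overlapped. Of all genes, 15.9% had wild-type 5-FU libraries that all lay below those of wild type with PBS. For 21.4% they all lay below those of the mutant with 5-FU. The share of genes below all 13 others was not computed.

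After 5-FU, Trib1 averaged 17.9 ± 8.25 CPM (SD, n = 3) in the mutant and 4.31 ± 0.373 CPM (n = 3) in wild type. The log2 difference of 2.05 ± 0.53 (SE) had an adjusted p of 0.0574 by edgeR and so did not pass the threshold of 0.05. Higher calls made up 1.49% of genes in this comparison, and 21.4% of genes, Trib1 among them, had mutant libraries that all exceeded those of wild type. Trib1 passed by DESeq2 (adjusted p = 0.00438), in a fit of the 2 groups alone (0.016) and without the 5 PBS libraries that held over 30% immunoglobulin counts (0.0178). Those fits called 7.94, 14.1 and 17% of all genes. The difference was smaller with code writing as a covariate (1.34, adjusted p = 0.543), on the log2(TPM + 1) scale (0.85, adjusted p = 0.316) and on that scale without immunoglobulin genes (1.38, adjusted p = 0.142). On these TPM scales the median gene moved by −0.593 and −0.142, against 0.0723 in the edgeR fit. With 1 library left out the adjusted p ran from 0.0526 to 0.234. Marker lists other than that of plasma cells also parted the 2 groups. Eosinophil markers (7 genes, Epx and Ear1 at 0 in both groups) had 3.62 to 9.35 CPM in wild type and 81.1 to 98.3 CPM in the mutant. Monocyte and macrophage markers had 40 to 160 and 516 to 942 CPM. Erythroid markers (6 genes, Slc4a1 at 0 in wild type) had 8.24 to 20.6 and 26 to 165 CPM. T and NK cell markers had 0.608 to 0.772 and 6.58 to 18.2 CPM, and B cell markers 21.8 to 33.9 and 69.9 to 228 CPM. Other lists parted the groups in the opposite direction. Markers of lymphoid-primed progenitors summed to 374 to 733 CPM in wild type and 120 to 135 CPM in the mutant, and gate and stem cell markers to 1670 to 1930 and 1280 to 1500 CPM. The part of these lists in the Trib1 difference was not tested. The sign turned with the immunoglobulin share as a covariate, to −0.60 ± 0.83 (adjusted p = 0.762). That share ran from 0.0392 to 0.332% in the wild-type libraries and from 5.69 to 26.6% in the mutant ones. Without overlap, share and genotype cannot be told apart there, and the adjusted value is an extrapolation. After 5-FU every wild-type code is written without a leading zero and every mutant code with one, so code writing and genotype cannot be told apart there. The wild-type libraries of this comparison also served in the choice of Trib2.

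Trib1 did not pass in the other tested comparisons. Within the mutant, 5-FU and PBS differed by −0.54 ± 0.46 (adjusted p = 0.719, edgeR), and the sign turned on the TPM scale (0.04, adjusted p = 0.968). The median gene moved by 0.325 on the TPM scale, against −0.0261 in the edgeR fit. Under PBS the genotypes differed by −0.27 ± 0.39 (adjusted p = 1, edgeR), in a comparison in which 0.0182% of genes were called, and the difference was 0.01 without wild-type PBS replicate 3. Within codes written with a leading zero these values were −0.87 (adjusted p = 0.273) and −0.07 (adjusted p = 1), and within the other codes the genotypes differed by −0.74 (adjusted p = 1). In wild type, as a description, Trib1 averaged 31.3 ± 15.3 CPM (SD, n = 5) with PBS and 4.31 CPM after 5-FU. That log2 fold change was −2.85 ± 0.52, and the difference between the 2 responses was 2.32 ± 0.66. With the immunoglobulin share as a covariate these became 0.07 ± 0.89 and −0.39 ± 0.90. Every wild-type 5-FU library had a lower share than every PBS library, so these values are extrapolations.

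The highest and lowest Trib1 levels of 3 groups stood at the highest and lowest immunoglobulin shares. In each PBS group the highest level (54.7 and 52.3 CPM) stood in the library with the highest share (44.2 and 50.2%), and the lowest level (16.9 and 10.2 CPM) in the library with the lowest share (6.37 and 3.67%). The 3 mutant 5-FU libraries stood in the same order, with 26.4 CPM at 26.6%, 17.3 CPM at 16.9% and 9.96 CPM at 5.69%. Mutant PBS replicate 5, with a share of 3.67%, had 10.2 CPM, more than any wild-type 5-FU library. The order did not hold throughout. In wild type with PBS, 18.6 CPM stood at 36.0% and 36.0 CPM at 25.2%, and in wild type with 5-FU the highest level, 4.66 CPM, stood at the lowest share, 0.0392%. The part of plasma cells in the Trib1 level was not tested.

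**Figure D2:**
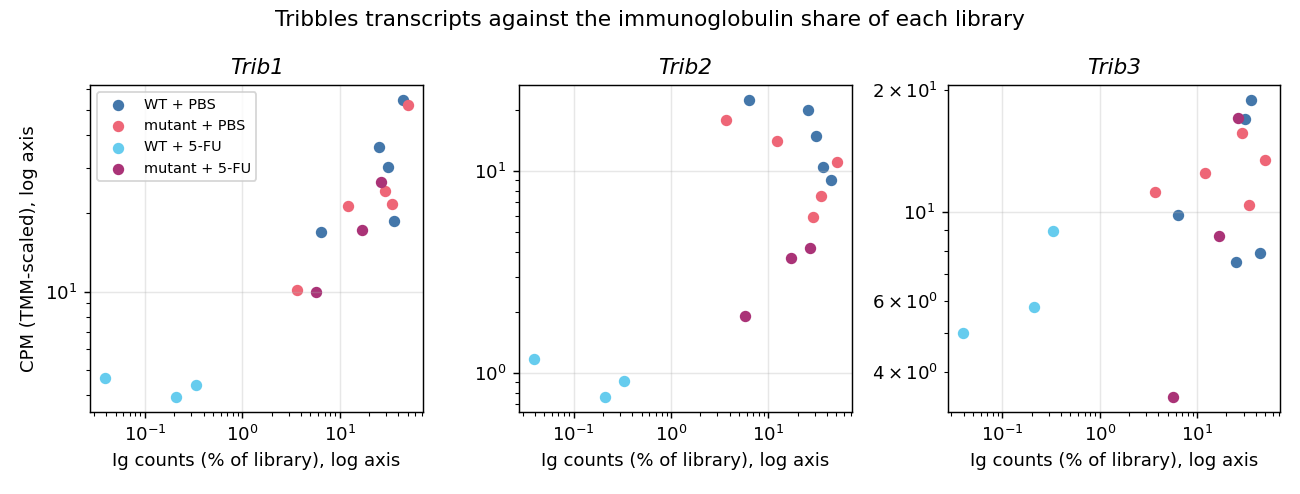
CPM of each Tribbles gene (log axis) against the percentage of a library's counts that came from immunoglobulin genes (log axis), 1 point per library, colored by group. Trib1 is highest (54.7 and 52.3 CPM) at shares of 44.2 and 50.2%, while the 3 wild-type 5-FU libraries, at shares of 0.0392 to 0.332%, stand apart for Trib1 and Trib2.

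Trib3, the stress-induced member, showed no difference past the threshold in any tested comparison. Wild-type PBS replicates 1 to 5 had 17.0, 18.9, 7.89, 7.52 and 9.80 CPM. Mutant PBS replicates 1 to 5 had 15.7, 10.4, 13.4, 12.5 and 11.2 CPM. Wild-type 5-FU replicates 1 to 3 had 5.80, 5.00 and 8.93 CPM, and mutant 5-FU replicates 1 to 3 had 17.0, 8.69 and 3.46 CPM. The groups overlapped in each of the 4 comparisons. The order of the mutant 5-FU libraries was again that of the immunoglobulin share.

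The genotypes differed in Trib3 by 0.05 ± 0.36 under PBS (adjusted p = 1, edgeR) and by 0.56 ± 0.47 after 5-FU (adjusted p = 0.515). Within the mutant, 5-FU and PBS differed by −0.38 ± 0.43 (adjusted p = 0.797). Each of these signs turned when 1 library was left out. The PBS difference became −0.08 without wild-type PBS replicate 3 or replicate 4, −0.02 without wild-type PBS replicate 5 and −0.04 without mutant PBS replicate 1. The difference after 5-FU became −0.11 without mutant 5-FU replicate 1, and the mutant response became 0.03 without mutant 5-FU replicate 3. Within codes written with a leading zero the mutant response was −0.44 (adjusted p = 0.577) and the PBS difference −0.15 (adjusted p = 1), and within the other codes the PBS difference was 0.45 (adjusted p = 1). In wild type, as a description, Trib3 averaged 12.2 ± 5.35 CPM (SD, n = 5) with PBS and 6.58 ± 2.08 CPM (n = 3) after 5-FU, a log2 fold change of −0.90 ± 0.43. On the log2(TPM + 1) scale that value was 0.53 ± 0.53, so its direction depends on the scaling. Against the 2 PBS libraries whose codes begin like that of 5-FU replicate 3, that replicate alone had 0.04 ± 0.63. On that scale the median of all genes moved by 1.01 in wild type, against −0.107 in the edgeR fit, so relative to the median gene Trib3 was lower on both scales. With immunoglobulin genes left out of the TPM total the median moved by 0.265.

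**Figure D3:**
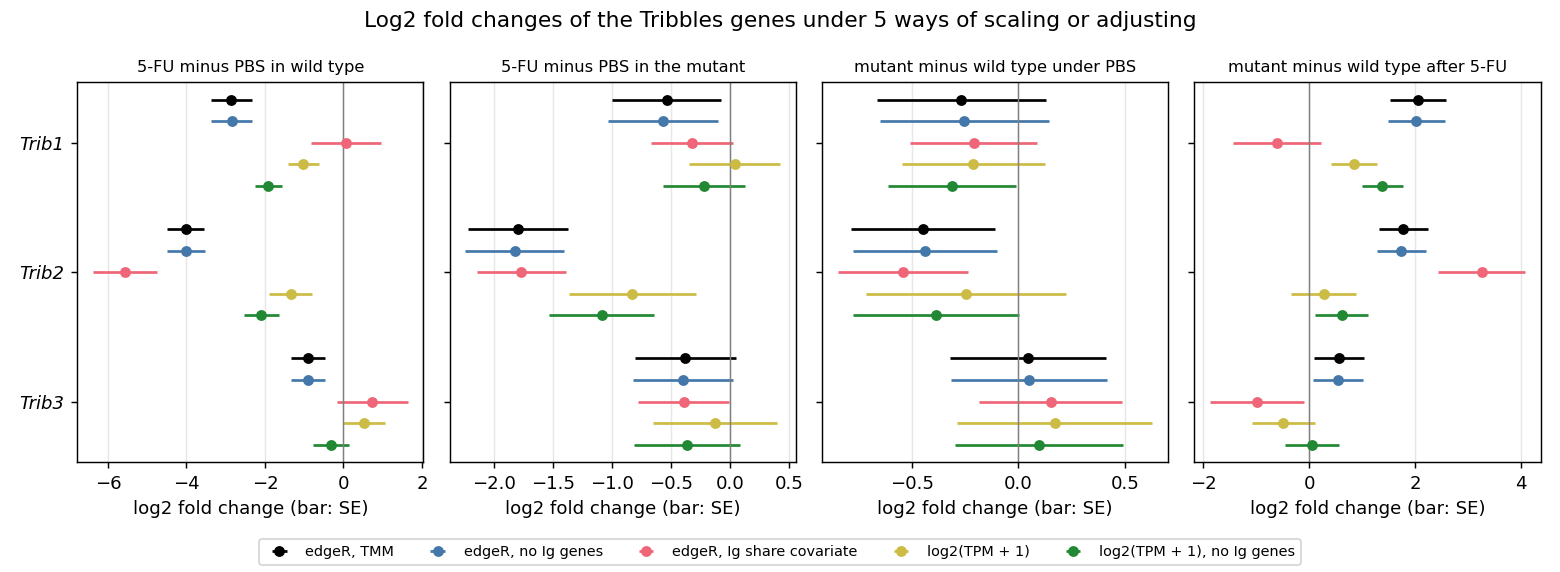
Log2 fold change of each Tribbles gene (x axis, bars are SE) in 4 comparisons, each under 5 ways of scaling or adjusting the libraries. Trib2 lies left of 0 in both responses to 5-FU under all 5, from −5.56 to −1.35 in wild type, whereas Trib1 and Trib3 in wild type reach 0.07 and 0.74 with the immunoglobulin share as a covariate. That share did not overlap between the groups compared in wild type and after 5-FU, so covariate values there are extrapolations.

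Genes that work with the Tribbles proteins were taken from 8 lists holding 88 genes, all of which could be tested. After 5-FU in wild type edgeR called 12 of the 88 higher and 7 lower (21.6%, beside 14.9% of all genes, of which 5.55% higher and 9.31% lower). In the mutant 4 were called higher and 1 lower (5.68%, beside 2.2% of all genes, of which 0.837% higher and 1.36% lower). The median log2 fold change of the 88 was 0.138 in wild type, where that of all genes was −0.107, and 0.00382 in the mutant, where it was −0.0261. Cebpe, Etv4, Nfkb1 and Pbx3 were called in both genotypes, and the share of all genes called in both was not computed. Between genotypes 0 of the 88 were called under PBS (3 had an unadjusted p under 0.05, and DESeq2 called 0), and after 5-FU 1 was called higher and 1 lower (2.27%, beside 1.95%). Without the 5 PBS libraries over 30% immunoglobulin, 16 of the 88 were called in wild type, 10 in the mutant and 15 between genotypes after 5-FU, beside 1021, 622 and 2848 of all genes. With the immunoglobulin share as a covariate the edgeR calls were 0 in wild type (13 with an unadjusted p under 0.05), 8 in the mutant and 0 between genotypes after 5-FU (10 with an unadjusted p under 0.05), beside 22, 484 and 0 of all genes. The share did not overlap between the groups compared in wild type and after 5-FU, so the counts there rest on extrapolation. DESeq2, without the covariate, called 33, 15 and 10 of the 88, beside 27.9, 5.38 and 7.94% of all genes. Within codes that begin with the same digits 4 of the 88 were called in wild type and 8 in the mutant, beside 1.4 and 4.99% of all genes.

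**Figure D4:**
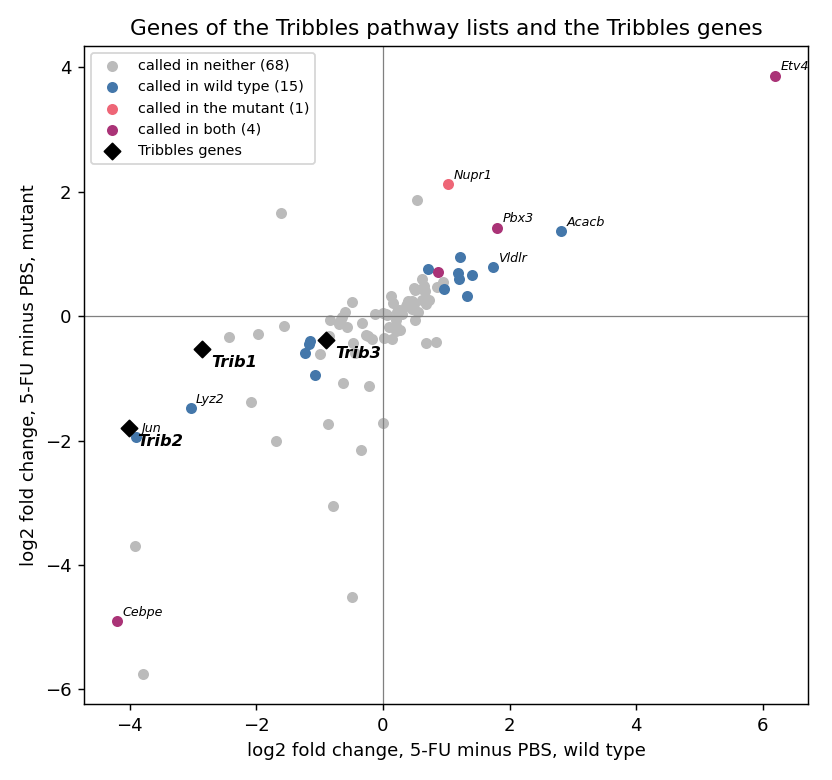
Log2 fold change after 5-FU in the mutant (y axis) against that in wild type (x axis) for the 88 listed genes (circles, colored by which response was called) and the 3 Tribbles genes (diamonds). The 2 contrasts share no libraries. Trib2 sits at −4.02 and −1.80, and 68 of the 88 genes were called in neither response.

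Among upstream regulators of Tribbles genes (12 genes), 2 rose and 2 fell in wild type, and 2 rose and 0 fell in the mutant. Of all genes, 5.55% rose and 9.31% fell in wild type, and 0.837% rose and 1.36% fell in the mutant. The counts of each list below stand beside these same shares. Pbx3, a homeobox partner of Meis1 and Hoxa9, rose by 1.80 ± 0.26 in wild type (adjusted p = 0.000677, edgeR) and by 1.42 ± 0.26 in the mutant (adjusted p = 0.00709). Nfkb1, an NF-κB subunit, rose by 0.86 ± 0.16 (adjusted p = 0.00272) and 0.70 ± 0.16 (adjusted p = 0.0237). Atf4, which activates Trib3 in stress, fell by 1.16 ± 0.23 in wild type (adjusted p = 0.00477), from 148 to 66.3 CPM. In the mutant Atf4 had 170 CPM with PBS and 128 CPM after 5-FU (−0.40 ± 0.22, adjusted p = 0.484). The forkhead factor Foxo3, which Trib2 restrains, fell by 1.08 ± 0.31 in wild type (adjusted p = 0.0333), and the mutant value was −0.95 ± 0.31 (adjusted p = 0.157). Meis1, the activator of Trib2 named above, differed by 0.37 ± 0.27 in wild type (adjusted p = 0.312) and by 0.19 ± 0.27 in the mutant (adjusted p = 0.851). Hoxa9 had −0.44 ± 0.17 (adjusted p = 0.0782) and −0.60 ± 0.17 (adjusted p = 0.0844), with the 5-FU libraries below all PBS libraries in both genotypes. So did 15.9% of all genes in wild type and 4.92% in the mutant. The list's median was 0.138 (wild type) and −0.214 (mutant). Spi1, which encodes PU.1, was the most abundant of the list per length.

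In the COP1 ubiquitin ligase list (7 genes), 2 rose in wild type and 0 fell. These were Ddb1, the adaptor of the CUL4 ligases, at 1.32 ± 0.32 (adjusted p = 0.0152, edgeR) and the scaffold Cul4b at 1.18 ± 0.36 (adjusted p = 0.04). Rfwd2, the gene of COP1 itself, had 58.9 CPM with PBS and 90.2 CPM after 5-FU in wild type (0.61 ± 0.23, adjusted p = 0.0763). In the mutant it had 51.2 and 69.3 CPM (0.43 ± 0.23, adjusted p = 0.464). In both genotypes every 5-FU library lay above the PBS libraries for this gene, as for 16% of all genes in wild type and 5.04% in the mutant. In the mutant 0 of the 7 genes passed by edgeR or DESeq2, with 0 at an unadjusted p under 0.05. The list's median log2 fold change was 0.615 (wild type) and 0.328 (mutant). Rbx1, the RING subunit, was the most abundant member per length.

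The C/EBP family (6 genes), whose member C/EBPα is the main substrate of Trib1 and Trib2, had 2 falls in wild type and 1 in the mutant. Cebpe, a factor of late granulocyte maturation, fell from 7.43 to 0.413 CPM in wild type (−4.20 ± 0.92, adjusted p = 0.00884, edgeR) and from 7.33 to 0.235 CPM in the mutant (−4.91 ± 0.96, adjusted p = 0.0114). The summed neutrophil markers (7 genes) moved beside it, from 2800 to 20100 CPM in wild-type PBS libraries to 0.958 to 13.1 CPM after 5-FU, and their part in the fall was not tested. Ddit3, which encodes CHOP, fell by 1.24 ± 0.29 in wild type (adjusted p = 0.0126), and the mutant value was −0.59 ± 0.28 (adjusted p = 0.388). Cebpa itself had 7.79 CPM with PBS and 7.84 CPM after 5-FU in wild type (0.01 ± 0.46, adjusted p = 0.994). In the mutant Cebpa had 5.83 CPM with PBS and 1.77 CPM after 5-FU (−1.72 ± 0.50, adjusted p = 0.0993). Its libraries after 5-FU had 1.77, 1.33 and 2.22 CPM in the mutant and 6.95, 4.15 and 12.4 CPM in wild type, without overlap, as for the 17.9% of all genes that lay lower in the mutant in this way. That difference of −2.14 ± 0.54 had an adjusted p of 0.0533, and the difference between the 2 responses, −1.72 ± 0.67, an adjusted p of 0.324. The family's median was −0.32 (wild type) and −0.475 (mutant). Cebpb was the most abundant member per length.

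Of 13 other COP1 substrates and Tribbles targets, 4 rose and 2 fell in wild type, and 1 rose in the mutant. Jun, the AP-1 subunit that COP1 degrades, fell from 300 to 20.1 CPM in wild type (−3.90 ± 0.86, adjusted p = 0.00958, edgeR), and the mutant value was −1.94 ± 0.77 (adjusted p = 0.274). Etv5, an Ets factor and COP1 substrate, rose by 1.40 ± 0.30 (adjusted p = 0.00837). Its relative Etv4 rose in both genotypes, from 0.0459 to 4.24 CPM in wild type (adjusted p = 0.000879), where the PBS libraries held 6 counts in all, and from 0.439 to 6.77 CPM in the mutant (adjusted p = 0.0135). Acacb, an acetyl-CoA carboxylase, rose by 2.81 ± 0.69 in wild type (adjusted p = 0.016), and Cdc25c, a mitotic phosphatase, by 1.22 ± 0.34 (adjusted p = 0.0287). The second fall was that of Foxo3, which stands in 2 lists. The median of the 13 genes was 0.207 (wild type) and 0.0315 (mutant). Trp53, which encodes p53, was the most abundant of this list per length.

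Among 12 kinases that Tribbles proteins bind or modulate, 0 passed in any comparison by edgeR, with 1, 0, 0 and 1 at an unadjusted p under 0.05 in wild type, in the mutant, between genotypes under PBS and between genotypes after 5-FU. DESeq2 called 1 of them, in wild type. The smallest p in wild type was that of Akt1 (0.95 ± 0.37, adjusted p = 0.0836), from 179 to 347 CPM. Of 8 related pseudokinases 0 passed in any comparison by edgeR, with 1, 2, 0 and 1 at an unadjusted p under 0.05, and DESeq2 called 1 in wild type and 1 in the mutant. Their smallest p after 5-FU belonged to Stradb, an adaptor of the kinase LKB1, in wild type (0.51 ± 0.18, adjusted p = 0.067) and to the cytoskeletal pseudokinase Peak1 in the mutant (−1.12 ± 0.35, adjusted p = 0.135). Medians were 0.257 in wild type and 0.0526 in the mutant for the kinases, and 0.216 and −0.0368 for the pseudokinases. Per length, Akt1 and Nrbp1 were the most abundant of their lists.

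Trib3 is one of many targets of the integrated stress response, and 21 others were examined. In wild type 4 rose and 1 fell after 5-FU. Those that rose were Vldlr, a lipoprotein receptor, by 1.74 ± 0.25 (adjusted p = 0.000692, edgeR), the amino acid transporter Slc7a5 by 1.20 ± 0.24 (adjusted p = 0.00538), Aldh18a1 by 0.97 ± 0.29 (adjusted p = 0.0383) and the serine synthesis enzyme Psat1 by 0.71 ± 0.23 (adjusted p = 0.0461). The fall was that of Ddit3. In the mutant Nupr1, a stress-induced chromatin protein, rose by 2.12 ± 0.35 (adjusted p = 0.00344), from 7.69 to 33.4 CPM. After 5-FU Nupr1 was higher in the mutant by 1.82 ± 0.41 (adjusted p = 0.0332) and Vldlr lower (−1.38 ± 0.29, 53.3 against 139 CPM, adjusted p = 0.0276). The median of these targets was 0.205 (wild type) and 0.109 (mutant). Phgdh, the first enzyme of serine synthesis, was the most abundant of the list per length.

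Of 12 granulocyte-monocyte genes that C/EBPα drives, 3 fell in wild type and 1 in the mutant. Lyz2, which encodes lysozyme, fell by 3.04 ± 0.46 in wild type (adjusted p = 0.000901, edgeR), and Csf2ra, a chain of the GM-CSF receptor, fell too (−1.16 ± 0.24, adjusted p = 0.00607). Cebpe, counted here too, was the third, and the 1 fall in the mutant. Mpo and Elane, granule enzymes of granulocyte-monocyte progenitors, had mutant values of −4.51 ± 1.296 (adjusted p = 0.104) and −5.76 ± 1.66 (adjusted p = 0.109), with every 5-FU library below every PBS library, as for 4.92% of all genes. Others of the list went the other way without passing. Csf1r, the M-CSF receptor gene, had 16.5 CPM with PBS and 51.8 CPM after 5-FU in the mutant (1.65 ± 0.63, adjusted p = 0.251) and 31 and 10.2 CPM in wild type (−1.61 ± 0.69, adjusted p = 0.108). Its difference of responses, 3.25 ± 0.94, had an adjusted p of 0.147. Csf3r, the G-CSF receptor gene, had 90 and 160 CPM in wild type (0.83 ± 0.38, adjusted p = 0.125). The median of the list was −0.896 (wild type) and −1.28 (mutant). The neutrophil markers given above moved with it, and their part was not tested. Mpo was the most abundant of the list per length.

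The genes most like each Tribbles gene over the 16 libraries were ranked by Pearson r of log2 CPM among 10069 genes with a mean of at least 5 CPM. These values describe libraries that share group, depth and immunoglobulin share, and they carry no p. For Trib1 they were Fam46c, a poly(A) polymerase gene known from plasma cells and myeloma (r = 0.976), Wnt10a (0.971), Cacna1h (0.967), Ifi211 (0.966) and Rasgrp3 (0.965). With group means removed the leading genes were Ppp1r16b (0.935), Sspo (0.928) and Reln (0.922), and Fam46c had 0.916. For Trib2 the lactate dehydrogenase subunit Ldhb led (0.974), followed by Trp53inp2 (0.952), the blood group gene Rhd (0.937), Osgin1 (0.933) and the gelatinase Mmp9 (0.925). With group means removed Ldhb had 0.771 and Polg (0.882), Ccdc171 (0.88) and Limk2 (0.871) led. Over all libraries Polg had −0.364, so that likeness holds only inside the groups. For Trib3 the values were lower, with Fgfbp3 at 0.873, Hddc3 at 0.852, Cyp4f13 at 0.835, Gimap6 at 0.834 and Pgpep1 at 0.833. Fgfbp3 (0.823), Cyp4f13 (0.814) and Zfp119b (0.812) led with group means removed. Between members, Trib1 and Trib2 had r = 0.737 over all libraries and −0.161 with group means removed.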

How the data were processed

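RNA of 3000 to 10000 sorted LSK cells per replicate was extracted (RNeasy Micro kit) and made into libraries with the NuGEN Ovation Ultralow system, per the labels' protocols. RSEM 1.3.1 and FastQC 0.11.2 were used with mm10/GRCm38, per the submitters' processing notes. For the aligner and annotation release, the sources used here name none. The deposited tables hold, per the file headers, unscaled RSEM expected counts, TPM and FPKM with gene and effective lengths. FPKM was not used.

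Expected counts were rounded, filtered with filterByExpr (minimum count 10) and tested with edgeR 4.0.16 (TMM factors 0.508 to 1.37, robust quasi-likelihood fit, 1 mean per group, all 16 samples). P-values were adjusted by Benjamini-Hochberg over all 16482 genes tested, with a threshold of 0.05. SE is the size of the log2 fold change over the root of the F statistic. The alternatives, with DESeq2 1.42.0 and limma 3.58.1 among them, are given in the closing section. Immunoglobulin genes are the IG biotypes of GENCODE M21 (99.8% of gene IDs matched). Promoter sequence is from RefSeq (GRCm38.p6), which had no entry used here for Trib1.

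Named beside the members are up to 4 genes per list with the smallest p, the most abundant per length, and the 5 (all libraries) and 3 (group means removed) most similar genes. The search for similar genes left out predicted gene models, immunoglobulin segments, and sex-linked Xist and Y genes. Meis1 is named outside this rule. The members, lists and tests were chosen with earlier results of these data known. Same-numbered PBS samples of the 2 genotypes deviated together (r from 0.197 to 0.631 over 5 pairs). Their immunoglobulin shares also stood in the same order of replicate numbers in both genotypes. Samples with unlike numbers were not compared, so whether the numbers pair the PBS groups was not tested. For same-numbered samples of the other groups r ran from −0.124 to 0.153.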

Additional observations from a re-analysis of the deposited data

How the results depend on the processing

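The alternatives were RLE scaling, no low-count filter, DESeq2, a fit of only the groups compared, the replicate number as a block, the immunoglobulin share or the code writing as a covariate, removal of immunoglobulin genes and leaving out each library. Alternatives chosen after the data were seen were log2(TPM + 1) with and without immunoglobulin genes, leaving out the 5 libraries over 30% immunoglobulin, and comparison within 1 code writing or within codes that begin with the same digits. Of the values under alternatives, 299 kept direction and side of the threshold or moved by less than the spread, 33 moved further, 17 reversed, 9 lost and 4 gained a call, and the cause was not tested. A value without a test counted as reversed only where its main value exceeded its SE. Sign changes of the Trib3 difference of the responses, such as that to −1.13, therefore stand among those that moved or stayed. Counts of called list genes were judged by their ratio to the main count. Counts of called list genes (19 in wild type, 5 in the mutant, 2 after 5-FU) were 33, 15 and 10 with DESeq2 (beside 27.9, 5.38 and 7.94% of all genes), 46, 13 and 13 with the replicate block (44.4, 6.15 and 9.25%), 0, 8 and 0 with the immunoglobulin covariate, and 16, 9 and 0 with code writing as a covariate (6.14, 5.38 and 0.255%). Within codes that begin with the same digits they were 4 (wild type) and 8 (mutant, beside 1.4 and 4.99%), where the mutant response of Trib2 was −1.05 and lost its call and the wild-type response of Trib3 was 0.0438, with 1 library after 5-FU assumed to vary like the others. After 5-FU the count was 13 in only the groups compared (14.1% of all genes) and 15 without the high-immunoglobulin libraries (17%), which gave 10 in the mutant (3.72%). The replicate block changed no call under PBS, where same-numbered samples deviated together, and the mutant response of Trib2 was −1.38 with it. Trib1 after 5-FU gained its call with DESeq2 (2.04), with only the groups compared (2.05), with the replicate block (2.08) and without the high-immunoglobulin libraries (2.02), and turned to −0.60 with the immunoglobulin covariate. That covariate gave wild-type responses of 0.0699, −5.56 and 0.74 for Trib1, Trib2 and Trib3, differences after 5-FU of 3.25 for Trib2 and −0.98 for Trib3, and differences of the responses of −0.39, 3.79 and −1.13. Each of these involves the wild-type 5-FU libraries, whose shares lie below those of every other group, so the values are extrapolations. With code writing as a covariate Trib2 had 2.70 after 5-FU and 3.17 for the difference of the responses. Code writing coincides with genotype after 5-FU, so its effect there is carried over from the PBS libraries. On log2(TPM + 1) the wild-type responses were −1.02, −1.35 and 0.53, the mutant responses 0.0394 for Trib1 and −0.83 for Trib2, the differences after 5-FU 0.27 for Trib2 and −0.49 for Trib3, and the differences of the responses 1.06, 0.52 and −0.66. The median gene moved by 1.01, 0.325, −0.593 and −0.684 on that scale, in the same order of comparisons. The added 1 by itself shrinks the Trib2 values, at 0.44 to 0.73 TPM in wild type and 0.85 to 1.09 TPM in the mutant after 5-FU. Without immunoglobulin genes on that scale, Trib1 and Trib2 had −1.91 and −2.09 in wild type, and Trib2 had −1.09 in the mutant, 0.61 after 5-FU and 1.00 for the difference of the responses. The mutant response of Trib2 was −1.81 with only the groups compared and lost its call there and on both TPM scales. Trib1 after 5-FU was 0.85 on log2(TPM + 1), 1.38 on that scale without immunoglobulin genes and 1.34 with code writing as a covariate. The PBS difference of Trib3 was −0.15 within codes with a leading zero. With each library left out, the PBS difference ran from −0.65 to 0.0129 for Trib1 and from −0.0786 to 0.26 for Trib3, the mutant response from −2.01 to −1.52 for Trib2 and from −1.05 to 0.0286 for Trib3, and for Trib3 the difference after 5-FU from −0.11 to 0.96 and that of the responses from −0.16 to 0.92. Depth limits Trib2 most in wild type after 5-FU, at 24 to 44 counts per library. The SEs given come from the fits and include the spread between libraries as well as counting error.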
